A study of Homo sapiens with 6 samples.

Results

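The baseline transcriptome of HN12 cells was described from 3 libraries of cells kept with the solvent DMSO (labelled Control), out of 6 libraries in the series. They were taken by their label alone. HN12 is an established human line from a head and neck squamous cell carcinoma. The other 3 libraries are of HN12 cells given the compound CPI-613, and no comparison with them is made here. All groups were grown in DMEM with 10% serum, with penicillin and streptomycin, and were treated for 24 h. DMSO was present in every library described, so a state without solvent was not measured. As a line grown alone in culture it is a model of the carcinoma cell without its stroma and immune cells. Nothing in the labels states that replicates 1 to 3 were separate cultures, so the spread between them may be technical.

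Stratified squamous epithelium is renewed from a basal layer. Basal cells contain the keratin pair KRT5 and KRT14, depend on the transcription factor TP63, and are anchored to laminin by hemidesmosomes. Cells that leave this layer exchange those keratins for others, such as KRT4 and KRT13 in the mouth or KRT1 and KRT10 in the skin, and then build a cornified envelope. Wounded and hyperproliferative epithelium switches on KRT6, KRT16 and KRT17, and carcinomas often add keratins of simple epithelia.

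Levels are given as FPKM, reads scaled to transcript length and library size, the scale on which genes can be set beside each other. Of 16330 listed genes, 11037 (67.6%) were at 1 FPKM or more in all 3 libraries, 4552 were under 1 FPKM in all 3, and 741 passed in 1 or 2 libraries. Counts of passing members in the lists below are to be read against the 67.6%. The median gene had a mean of 5.91 FPKM, and 84 genes reached 1000 FPKM. Total counts were 11535067, 12511791 and 12175207 in Control replicates 1, 2 and 3. Control replicate 2 stood apart from the other libraries. Across 10014 genes with a mean of at least 100 counts, Pearson's r of log2 CPM (counts scaled to library size) was 0.994 between replicates 1 and 3, 0.9606 between 1 and 2, and 0.9501 between 2 and 3. The median coefficient of variation (SD over mean of CPM) was 14.8%, and 4.6% without replicate 2. The value of each library is therefore given for the genes named, always in the order of replicates 1, 2 and 3.

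The 4 marker genes of the cells were all expressed. KRT5, on chromosome 12 from 52514575 to 52520394 (GRCh38), measured 1165, 1039 and 1382 FPKM (1195 ± 173, mean ± SD, n = 3). TP63, on chromosome 3 from 189596746 to 189897276, measured 71.7, 38.5 and 82.8 FPKM (64.3 ± 23.1). KRT13, a keratin of stratified oral epithelium on chromosome 17 from 41500981 to 41505612, measured 96.5, 63.6 and 101 FPKM (87.1 ± 20.4). Replicate 2 was the lowest of the 3 libraries for each of these genes. THBS2, which encodes the secreted matricellular protein thrombospondin-2 on chromosome 6 from 169215785 to 169253846, measured 35.5, 25 and 33.3 FPKM (31.3 ± 5.54). The label of a squamous epithelial line was met by KRT5 and TP63 in each library.

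Of 39 keratin genes listed, 15 were at 1 FPKM or more in all 3 libraries, where 67.6% of all listed genes were. Those 15 came from basal, wound-associated, simple-epithelial and differentiation keratins together. All 3 basal keratins passed: KRT14, the partner of KRT5, was at 949.9, 828 and 1195 FPKM, and KRT15 at 109.7, 69.5 and 112 FPKM. The ratio of KRT14 to KRT5 was narrow, 0.797 to 0.865 over the 3 libraries. KRT17, a wound keratin, was the most abundant keratin by mean level, at 1934, 1386 and 2698 FPKM. It lay above KRT5 in every library, by 1.33 to 1.95 times. KRT6A measured 247, 224 and 374 FPKM and KRT16 measured 89, 69.1 and 147 FPKM. KRT6B (5.16, 5.78 and 11.6) and KRT6C (1.1, 1.19 and 1.85) were far lower, and since KRT6A, KRT6B and KRT6C are close in sequence their split is uncertain.

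Keratins of simple epithelia stood at levels like those of the basal pair. KRT19 measured 1017, 619 and 1037 FPKM, KRT7 706, 1061 and 660.0 FPKM, KRT18 603, 874 and 543 FPKM and KRT8 581, 806 and 571 FPKM. KRT8 and KRT18, which pair with each other, ran in parallel across the libraries. KRT7, KRT8 and KRT18 were highest in replicate 2, where KRT5, KRT14, KRT17 and KRT19 were lowest, so the order of KRT7 and KRT5 was not the same in all libraries (ratio of 0.478 to 1.02). Among 10 listed keratins of differentiation, 3 passed 1 FPKM: KRT13, KRT10 (19.4, 19.9 and 19.1 FPKM) and KRT80 (4.78, 7.87 and 4.4 FPKM). KRT1, the skin partner of KRT10, was near the threshold at 1.06, 1.55 and 0.82 FPKM. KRT4, the usual partner of KRT13 in the mouth, was at 0.05, 0.04 and 0.04 FPKM. KRT75 of the hair follicle was at 0, 0 and 0.04 FPKM and KRT23 at 0.16, 0 and 0.08 FPKM.

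**Figure D1:**
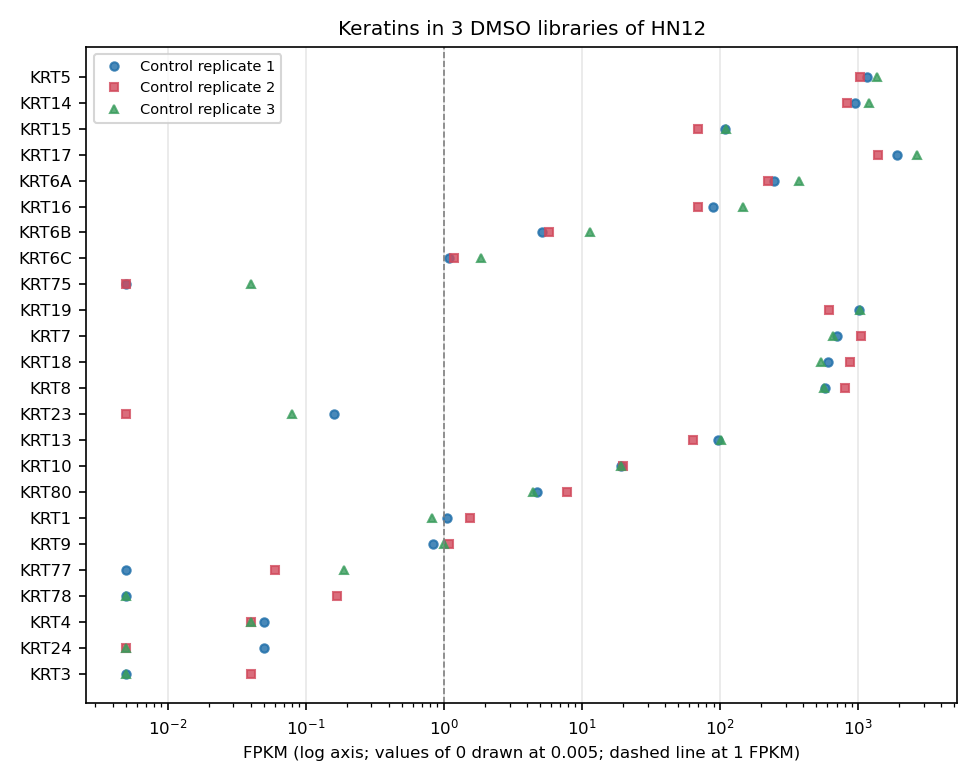
FPKM (horizontal log axis) of 24 keratins in Control replicates 1 (circles), 2 (squares) and 3 (triangles), grouped from basal at the top through wound-associated and simple-epithelial to differentiation keratins. KRT17, KRT5, KRT14, KRT19, KRT7, KRT18 and KRT8 sit between 543 and 2698 FPKM, KRT13 between 63.6 and 101 FPKM, and KRT4 near 0.04 FPKM.

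Most keratin promoters in the reference table share a sequence feature. The TATA box places the start of transcription at many genes that are strongly expressed in one tissue. The letters ATAAA, on the gene's own strand and 40 to 16 bases before the RefSeq start, were found for 15 of 20 listed keratins with a promoter in the RefSeq table (75%), and for 4.95% of all 27305 promoters. The share among promoters of the listed genes alone was not computed for these letters. KRT14, KRT17 and KRT6A, among others, had no promoter in that table. A match describes the letters and is not evidence that the site is used. Shown 5′ to 3′ on the gene's strand, with ATAAA in capitals, are KRT5 (minus strand, GRCh38.p14, chr12:52520404-52520438), which is high in these cells, and KRT10 (minus strand, chr17:40822623-40822657), which is much lower. Both carry the letters.
KRT5: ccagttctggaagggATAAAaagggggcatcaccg
KRT10: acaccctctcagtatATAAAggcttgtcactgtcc

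Transcription factors of squamous epithelium were expressed across the list. Of 29 listed, 26 (89.7%) were at 1 FPKM or more in all 3 libraries, against 67.6% of all listed genes. Their median was 12.3 FPKM. ELF3, an epithelial ETS factor, was the highest at 251, 155 and 265 FPKM. FOSL1, an AP-1 subunit, measured 49.1, 149 and 56.5 FPKM and was at least 2-fold higher in replicate 2 than in both others by CPM, as were 0.19% of 10014 genes. TRIM29 measured 58.2, 61.2 and 71.7 FPKM and KLF5 53.7, 30.8 and 67 FPKM. TP63 and KLF5 were lowest in replicate 2, in contrast to FOSL1. SOX2, a squamous lineage factor in many tumors, was at 0.15, 0.11 and 0.11 FPKM, and MAF at 0.15, 0.02 and 0.65 FPKM. PAX9, an oral patterning factor, lay just under the threshold at 0.86, 0.73 and 0.82 FPKM, and OVOL2, which represses mesenchymal genes, just over it at 2.13, 2.43 and 1.28 FPKM.

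TP63 is read from an upstream promoter, which gives the TA forms, and from an internal promoter, which gives the ΔN forms of basal cells. Estimated counts from 3 RefSeq transcripts that start at the internal promoter (chromosome 3, 189789660 to 189789801, GENCODE 29 starts on GRCh38) made up 86.1%, 85.5% and 85.1% of all TP63 counts. Transcripts starting upstream, at 189631427, made up 4.2%, 1.9% and 2.4%. The remaining 9.7%, 12.6% and 12.5% belonged to 4 transcripts without a GENCODE match. The ΔN forms were thus the main TP63 transcripts by this estimate in each library, including replicate 2, where total TP63 was lowest. The shares rest on how the authors' counter divided reads between transcripts that share most exons, so their precision is unknown.

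The adhesion machinery of a squamous sheet was present. All 9 genes of hemidesmosomes and their laminin passed 1 FPKM, with a median of 227 FPKM against 5.91 FPKM over all listed genes. LAMB3 and LAMA3, chains of the laminin that hemidesmosomes bind, measured 476, 525 and 459 FPKM and, respectively, 109, 75.3 and 125 FPKM. ITGB4, the hemidesmosomal integrin chain, measured 468, 531 and 437 FPKM, and its partner ITGA6 248, 158 and 277 FPKM. COL17A1, the transmembrane collagen of hemidesmosomes, measured 330.3, 362 and 331 FPKM, CD151 173, 193 and 171 FPKM and the cytolinker PLEC 116, 158 and 111 FPKM. DST, which encodes the plaque protein BP230 among other forms, was the lowest at 11.1, 5.57 and 9.97 FPKM. These laminin chains thus did not stand at equal levels: LAMA3 was lower than LAMB3 in each library.

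Of 17 listed genes of desmosomes and adherens junctions, 15 passed 1 FPKM. CDH3, P-cadherin of the basal layer, measured 303, 263 and 302 FPKM and exceeded CDH1, E-cadherin (99, 65.5 and 101 FPKM), by 3.01 to 4.01 times. JUP, plakoglobin, measured 283, 255 and 327 FPKM and the p63 target PERP 237, 179 and 256 FPKM. The desmosomal cadherins split by isoform. DSG2 (46.2, 20.5 and 45.3 FPKM), DSG3 (16.5, 5.34 and 22.2 FPKM), DSC2 (9.34, 3.48 and 11.7 FPKM) and DSC3 (22.7, 9.5 and 29.3 FPKM) were expressed, whereas the upper-layer cadherins DSG1 (0.09, 0.03 and 0.09 FPKM) and DSC1 (0.02, 0.02 and 0.02 FPKM) were near 0. The anchor protein DSP measured 100.1, 43.9 and 113 FPKM. DSG2, DSG3, DSC2, DSC3 and DSP were each at least 2-fold lower in replicate 2 than in both other libraries by CPM, as were 2.32% of 10014 genes. After subtraction of the median of genes of like GC content and length (the GC and length adjustment), DSG3 and DSP still were, and DSG2, DSC2 and DSC3 were not. After it 0.821% of 9985 genes were. In tight junctions 10 of 11 listed genes passed, led by CLDN7 (186, 165 and 181 FPKM) and CLDN1 (146, 71.4 and 153 FPKM), and CLDN3 was at 0.08, 0.46 and 0.16 FPKM.

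Late differentiation was uneven. Of 33 listed genes of the cornified envelope and late differentiation, 18 (54.5%) passed 1 FPKM, below the 67.6% of all listed genes, and the median was 1.7 FPKM. The calcium-binding alarmins S100A9 and S100A8 measured 316, 185 and 619 FPKM and, respectively, 93.8, 67.2 and 202 FPKM. Among envelope precursors, CSTA measured 107, 104 and 116 FPKM, SPRR1B 54.6, 67.4 and 104 FPKM, PPL 46.8, 44.7 and 47.3 FPKM and EVPL 35.2, 46 and 37.3 FPKM. IVL, involucrin, was at 1.09, 1.29 and 1.98 FPKM. The last proteins of the cornified layer were low or not detected: FLG, filaggrin, at 0.01, 0.03 and 0.01 FPKM, and TGM3, an epidermal transglutaminase, with no read in any of the 3 libraries. SPINK7, an esophageal protease inhibitor, also had no read, and MAL, a lipid-raft protein of oral mucosa, was at 0, 0 and 0.15 FPKM. S100A8 and S100A9 were highest in replicate 3, with replicate 1 in between. DMKN, dermokine, measured 92.1, 114 and 74 FPKM and KLK10, a secreted peptidase, 40.4, 31.8 and 47.8 FPKM.

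Genes often used as mesenchymal markers were partly expressed. Of 15 listed, 12 passed 1 FPKM. TGFBI, a secreted adhesion protein, was at 702, 729 and 692 FPKM, LAMC1 at 169.7, 140.0 and 168 FPKM and SPARC at 156, 159.7 and 156 FPKM. VIM, vimentin, was at 27, 39.9 and 23.4 FPKM, and FN1, fibronectin, at 47.4, 36.9 and 45.5 FPKM. CDH2, N-cadherin, measured 8.7, 10.6 and 8.37 FPKM, and CDH1 exceeded CDH2 by 6.18 to 12 times. Of the zinc-finger repressors named here, SNAI2 alone passed 1 FPKM in all 3 libraries, at 14, 9.29 and 15.9 FPKM. SNAI1, of the same family, measured 0.95, 1.52 and 1.06 FPKM and did not pass in replicate 1. ZEB1 (0.08, 0.1 and 0.07 FPKM) and ZEB2 (0.36, 0.14 and 0.27 FPKM) were low. TWIST1 measured 8.74, 9.52 and 9.33 FPKM and TWIST2 3.74, 5.5 and 3.49 FPKM. The epithelial splicing factors ESRP1 (34.2, 25.3 and 36.8 FPKM) and ESRP2 (33.3, 44.5 and 34.6 FPKM) were expressed beside them.

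Defining markers of other cell types were near 0. Of 8 listed fibroblast markers 2 passed 1 FPKM: COL1A1 (7.11, 6 and 7.48 FPKM) and ACTA2 (3.16, 2.02 and 2.92 FPKM). COL3A1 was at 0.02, 0 and 0.05 FPKM, THY1 at 0, 0.06 and 0.02 FPKM and PDGFRA at 0, 0 and 0.06 FPKM. Of 11 leukocyte markers 2 passed: the lysosomal gene CD68 (36.2, 29.7 and 44.9 FPKM) and CD14 (23.3, 13.5 and 25.8 FPKM). PTPRC, the pan-leukocyte CD45, was at 0.02, 0.03 and 0.07 FPKM, CD79A of B cells at 0.12, 0.11 and 0 FPKM, CD8A at 0, 0 and 0.09 FPKM, and CD4 had no read. CD68 and CD14 are not restricted to leukocytes, and the restricted markers were near 0. Of 9 endothelial markers 1 passed, EGFL7 (14.8, 16.2 and 15.7 FPKM), while PECAM1 (0.23, 0.09 and 0.1 FPKM), CDH5 (0.21, 0.13 and 0.06 FPKM) and VWF (0.14, 0.08 and 0.09 FPKM) were low. In bulk RNA, fewer cells of a type and less RNA per cell cannot be told apart.

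Lists for further lineages gave single genes. PMEL was the 1 of 4 melanocyte markers to pass, at 1.67, 2.14 and 1.25 FPKM, while MITF, the lineage's master factor, was at 0.41, 0.22 and 0.2 FPKM, MLANA at 0.12, 0.11 and 0.08 FPKM and DCT at 0.02, 0.02 and 0.02 FPKM. No neuroendocrine or neural marker passed: SYP was at 0.52, 0.4 and 0.41 FPKM, NCAM1 at 0.06, 0.04 and 0.06 FPKM, RBFOX3 at 0.06, 0 and 0.03 FPKM and GFAP at 0.02, 0 and 0 FPKM. Among 5 glandular markers, the membrane mucins MUC1 (55.4, 26.7 and 52.6 FPKM), MUC16 (17, 7.73 and 14.9 FPKM) and MUC4 (3.8, 1.4 and 2.75 FPKM) passed, and PIGR of secretory epithelium was at 0.11, 0.03 and 0.02 FPKM. The mucins that passed are membrane-bound, not gel-forming. SERPINA1, the antitrypsin of liver that epithelial cells also make, was at 85.7, 89.1 and 85.3 FPKM, ALB at 0.25, 0.12 and 0.2 FPKM, and the muscle gene CKM had no read.

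**Figure D2:**
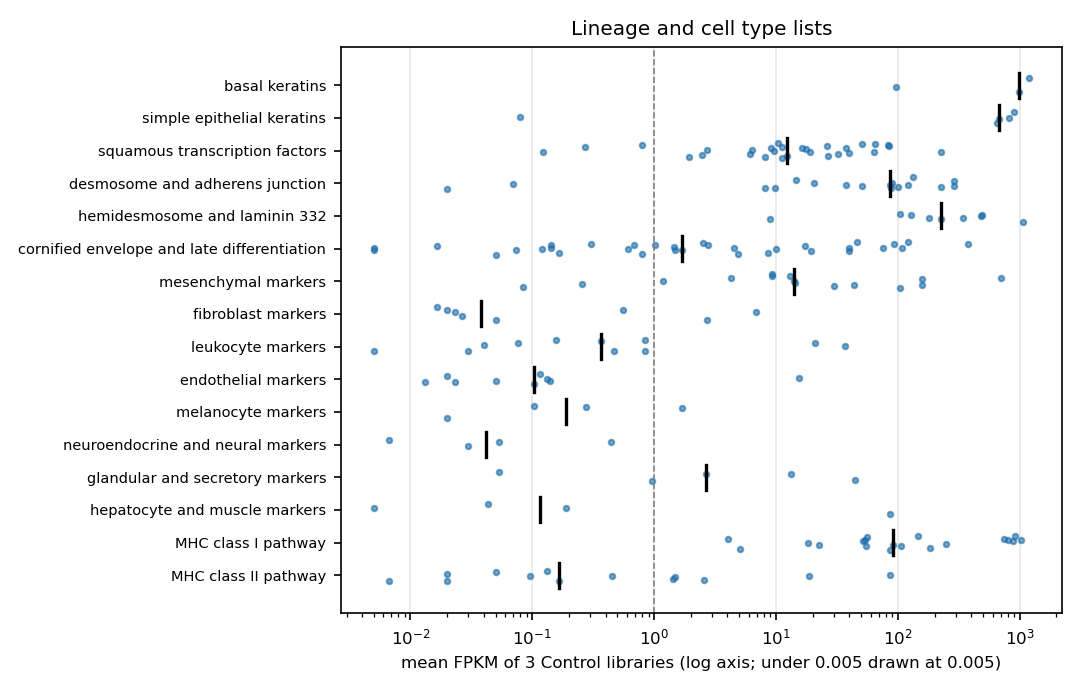
Mean FPKM over the 3 Control libraries (horizontal log axis) for each listed member (points) of 16 lineage and cell type lists, with the list's median as a black bar and 1 FPKM as a dashed line. Medians of the hemidesmosome list (227 FPKM) and the basal keratins (991 FPKM) lie far to the right of those of the fibroblast (0.038 FPKM) and endothelial (0.103 FPKM) lists.

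Glycolytic genes were expressed unevenly among isoenzymes. Of 27 listed genes of glucose uptake and glycolysis, 21 passed 1 FPKM, with a median of 92.6 FPKM. GAPDH was the second most abundant of all genes by mean FPKM, at 5666, 5754 and 6129.8. PKM, pyruvate kinase, measured 1868, 2082 and 1997 FPKM, ENO1 1869, 2008 and 1893 FPKM, LDHA 1414, 1040.3 and 1458 FPKM, ALDOA 1201, 1113 and 1290.0 FPKM and TPI1 875, 909 and 927 FPKM. These are the ubiquitous forms. Some muscle, liver, testis and blood forms were low or without a read: PGAM2 at 0.58, 0.53 and 0.27 FPKM, PKLR at 0.1, 0 and 0.15 FPKM, and LDHC and HK3 with no read. The brain forms ENO2 and ALDOC are not covered by this statement and are named below with the hypoxia-response genes. Among glucose transporters SLC2A1 measured 152, 127 and 152 FPKM, against 0.26, 0.16 and 0.08 FPKM for SLC2A3 and 0.19, 0.18 and 0.16 FPKM for SLC2A4. LDHA exceeded LDHB (618, 669 and 583 FPKM) by 1.55 to 2.5 times, with the smallest ratio in replicate 2.

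The mitochondrial enzymes that carry lipoate are the known targets of CPI-613, and their baseline levels were moderate. Of 18 genes of the lipoylated complexes 16 passed 1 FPKM, with a median of 14.4 FPKM. OGDH, the catalytic subunit of 2-oxoglutarate dehydrogenase, measured 60.8, 76.7 and 67.1 FPKM, and its lipoylated partner DLST 45.4, 52.6 and 45 FPKM. OGDHL, a brain-enriched relative of OGDH, was at 0.65, 0.52 and 0.39 FPKM. For pyruvate dehydrogenase, PDHA1 measured 22.1, 28.1 and 23.6 FPKM, PDHB 27.8, 33.5 and 28.5 FPKM, the lipoylated DLAT 15.7, 13.4 and 16.9 FPKM, PDHX 14.9, 10.9 and 15.5 FPKM and the shared DLD 19.4, 14.6 and 21.5 FPKM. The 2-oxoglutarate complex thus stood above the pyruvate complex in each library for the catalytic and the lipoylated subunit alike. The branched-chain complex was represented by BCKDHA (19.3, 19.2 and 19 FPKM), BCKDHB (13.9, 11.2 and 15.3 FPKM) and DBT (7.34, 4.46 and 8.55 FPKM), and DHTKD1 measured 15.6, 14.5 and 14.7 FPKM. In the glycine cleavage system GCSH measured 16.7, 16.5 and 17.5 FPKM and AMT 4.04, 2.43 and 2.61 FPKM, but GLDC, its decarboxylase, was at 0.31, 0.2 and 0.27 FPKM. The enzymes of lipoate synthesis and attachment lay below the median of all listed genes, 5.91 FPKM. LIAS was at 4.06, 4.23 and 4.38 FPKM, LIPT1 at 3.46, 2.3 and 3.37 FPKM and LIPT2 at 1.38, 1.79 and 1.86 FPKM.

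Of 10 genes that control pyruvate dehydrogenase or carry pyruvate 8 passed 1 FPKM. PDK1 measured 11, 4.96 and 11.4 FPKM and PDK2 8.41, 9.21 and 8.38 FPKM, while PDK3 was at 0.4, 0.32 and 0.44 FPKM and PDK4 at 0.05, 0.02 and 0.02 FPKM. PDK1, a kinase that inactivates pyruvate dehydrogenase, was at least 2-fold lower in replicate 2 than in both others by CPM, and not after the GC and length adjustment (log2 difference of -0.58). The opposing phosphatase subunits PDP1 and PDP2 measured 17.4, 10.3 and 16.9 FPKM and, respectively, 4.34, 3.89 and 3.74 FPKM, and the regulatory PDPR 12.7, 11.7 and 11.8 FPKM. The mitochondrial pyruvate carriers MPC1 and MPC2 were at 23.3, 24.7 and 18.7 FPKM and, respectively, 32.7, 31.8 and 32.5 FPKM, and pyruvate carboxylase, PC, at 16, 15.3 and 14.4 FPKM.

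All 18 listed TCA cycle genes passed 1 FPKM, with a median of 52.7 FPKM. MDH1 was highest at 142, 137 and 141 FPKM, followed by SDHA (121, 135 and 121 FPKM), MDH2 (101, 134 and 104 FPKM), CS (103, 124 and 99 FPKM) and SDHB (103, 117 and 104 FPKM). From SDHA to SDHB, each gene overlapped its neighbor in this order when the spread of the libraries is counted. IDH2, the mitochondrial NADP-dependent isocitrate dehydrogenase, was lowest at 4.07, 3.19 and 3.33 FPKM, below the cytosolic IDH1 at 42, 25.9 and 38.8 FPKM and the NAD-dependent IDH3A at 22, 22.1 and 22.4 FPKM. All 7 listed genes of the pentose phosphate pathway passed, with TKT at 170.1, 205 and 169 FPKM, TALDO1 at 151, 181 and 147 FPKM and PGD at 103, 128 and 109 FPKM.

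Among 11 metabolite transport genes, those of an amino acid exchanger were the highest. SLC7A5 and SLC3A2, the 2 chains of the LAT1 exchanger for large neutral amino acids, measured 1183, 1523 and 1185 FPKM and, respectively, 1119, 1553 and 982 FPKM, and SLC7A5 ranked among the 10 genes with the most counts. The glutamine transporter SLC1A5 measured 152, 224 and 134 FPKM and SLC38A2 142, 78.7 and 145 FPKM. SLC7A11, which imports cystine, was far lower at 2.59, 4.25 and 2.64 FPKM. Serine synthesis was expressed, with PHGDH at 80.1, 95.5 and 78.1 FPKM, PSAT1 at 57.3, 71.2 and 58.4 FPKM and SHMT2 at 125, 176 and 126 FPKM. Of 19 genes of this list 17 passed, GPT (0.35, 0.11 and 0.33 FPKM) being the lowest.

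Of 21 genes of fatty acid and sterol synthesis 20 passed 1 FPKM. SCD, which makes monounsaturated fatty acids, measured 229, 149 and 253 FPKM, FDPS 169.9, 189.9 and 172 FPKM and DHCR7 109, 122 and 109 FPKM. ACACB, the mitochondrial acetyl-CoA carboxylase, was at 0.04, 0.01 and 0 FPKM. Fatty acid uptake split in a similar way: FABP5, the epidermal carrier, was at 469.6, 349 and 577 FPKM, FABP4, the adipocyte carrier, at 0.78, 0.24 and 0.49 FPKM and CD36 at 0.06, 0.11 and 0.31 FPKM. Of 10 listed genes of gluconeogenesis, ketogenesis and the urea cycle 7 passed. ASS1, which makes argininosuccinate, measured 155, 142 and 168 FPKM and ASL 64.6, 65.2 and 59.9 FPKM, while CPS1 (0.19, 0.01 and 0.15 FPKM) and PCK1 (0, 0.04 and 0 FPKM) of the liver were low.

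Matricellular and matrix-associated genes included 4 thrombospondins. THBS1 measured 125, 200.2 and 124 FPKM, THBS2 35.5, 25 and 33.3 FPKM, THBS3 8.78, 4.56 and 8.38 FPKM and THBS4 1.23, 0.95 and 0.78 FPKM. The order THBS1, THBS2, THBS3, THBS4 held in each library. The ratio of THBS1 to THBS2 was 3.53, 8.01 and 3.71, so replicate 2 differed from the others in this balance. CD47, a thrombospondin receptor, measured 30.4, 22.8 and 31.4 FPKM, and CD36, another, was named above. CCN1 and CCN2, matricellular proteins and common readouts of YAP activity, measured 87, 282 and 102 FPKM and, respectively, 3.27, 20.2 and 7.63 FPKM, both highest in replicate 2. Osteopontin, SPP1, was at 0.14, 0.07 and 0.31 FPKM, SMOC1 at 0.08, 0.02 and 0 FPKM, CCN4 at 0.04, 0 and 0.02 FPKM and CCN5 at 0.19, 0.24 and 0.4 FPKM.

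Of 53 listed growth factors and related ligands 34 (64.2%) passed 1 FPKM, near the 67.6% of all genes. FGFBP1, a secreted carrier that releases FGFs from matrix, was highest at 310.1, 338 and 311 FPKM, and midkine, MDK, followed at 209.7, 188 and 194 FPKM. The angiogenic VEGFA measured 131, 89.2 and 131 FPKM, VEGFC 54.1, 60.5 and 53.9 FPKM and VEGFB 28.9, 32.9 and 29.2 FPKM. DKK1, a Wnt antagonist, measured 68.8, 101 and 63.6 FPKM and the Notch ligand JAG2 65.5, 81 and 59.7 FPKM. Among TGF-beta genes TGFB1 measured 52.2, 57.4 and 53.3 FPKM, against 0.15, 0.2 and 0.16 FPKM for TGFB2 and 0.68, 0.78 and 0.54 FPKM for TGFB3. IGF1 was at 0.02, 0 and 0 FPKM, IGF2 at 0.24, 0.15 and 0.15 FPKM and FGF21 at 0, 0.07 and 0 FPKM. FGF19 was at 0.38, 0.3 and 0.26 FPKM with DMSO.

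Ligands and receptors of the EGF family were both expressed in these cultures. AREG, amphiregulin, measured 136, 177 and 142 FPKM, NRG1 92.9, 100.5 and 81.5 FPKM, HBEGF 19.9, 27.1 and 25.6 FPKM and TGFA 19, 25.2 and 18.9 FPKM. EREG was at 3.57, 2.39 and 3.72 FPKM, BTC at 1.41, 0.89 and 1.38 FPKM, EPGN at 1.19, 0.62 and 0.92 FPKM and EGF itself at 0.2, 0.18 and 0.21 FPKM. AREG was the highest of these ligands in each library. Of the 4 receptors EGFR measured 101, 57 and 108 FPKM, ERBB2 35.5, 38.3 and 30.1 FPKM and ERBB3 15.3, 15.3 and 16.3 FPKM, while ERBB4 was at 0.01, 0 and 0 FPKM. EGFR exceeded ERBB2 by 1.49 to 3.58 times, with the smallest ratio in replicate 2.

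Of 56 listed receptor tyrosine kinases 23 (41.1%) passed 1 FPKM, below the 67.6% of all listed genes, and the median was 0.56 FPKM. DDR1, a collagen receptor of epithelia, was the highest at 285, 257 and 299.8 FPKM, and DDR2 of mesenchymal cells was at 0.05, 0.13 and 0.07 FPKM. EPHA2 measured 68.9, 131 and 62.9 FPKM, PTK7 85.6, 76.8 and 78.9 FPKM and AXL 56, 87.3 and 48.5 FPKM. EPHA2 and AXL were highest in replicate 2 while EGFR was lowest there. MET measured 33.9, 19.8 and 33.2 FPKM and its relative MST1R 29.1, 31.5 and 24.6 FPKM. Among FGF receptors FGFR3 (23.7, 19.1 and 21.9 FPKM), FGFR4 (9.26, 12.4 and 7.62 FPKM) and FGFR2 (9.57, 8.99 and 8.12 FPKM) passed, and FGFR1 (0.9, 0.62 and 0.66 FPKM) did not. MUSK, the kinase of the neuromuscular junction, had no read, and KIT (0, 0.03 and 0.02 FPKM), FLT3 (0, 0 and 0.03 FPKM) and ALK (0, 0 and 0.04 FPKM) were near 0.

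**Figure D3:**
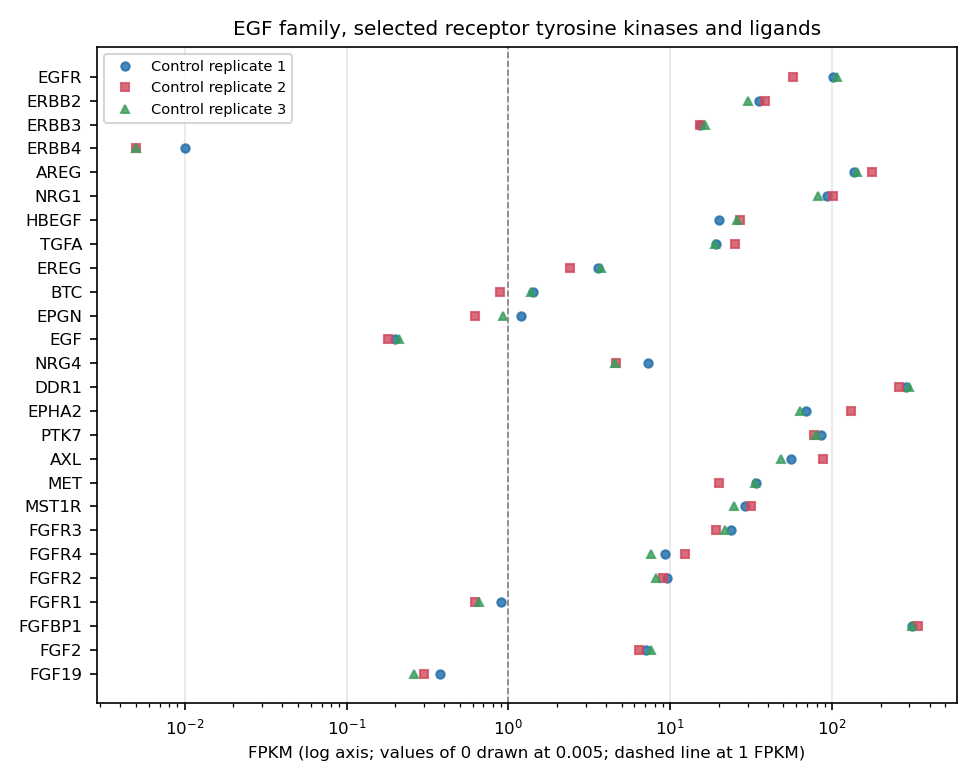
FPKM (horizontal log axis) of EGF-family receptors and ligands and of other growth factor genes in Control replicates 1 (circles), 2 (squares) and 3 (triangles). EGFR, ERBB2 and ERBB3 lie above 10 FPKM and ERBB4 at or under 0.01 FPKM, and AREG and NRG1 lie far above EGF.

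Of 24 listed integrin chains 11 (45.8%) passed 1 FPKM, below the 67.6% of all listed genes. ITGA3, a laminin receptor chain, measured 311, 368 and 284 FPKM, ITGB1 209.6, 119.5 and 219 FPKM, ITGA5 121, 63.7 and 125 FPKM and ITGB5 95.6, 71.7 and 84.6 FPKM. ITGB6, a chain of the receptor that activates latent TGF-beta, measured 19.8, 7.51 and 21.1 FPKM and ITGA2, a collagen receptor chain, 28.9, 12.8 and 32.7 FPKM. ITGB6 and ITGA2 were at least 2-fold lower in replicate 2 than in both others by CPM, and neither was after the GC and length adjustment. After it ITGA5 was, at an adjusted log2 difference of -1.20. The ITGB6 partner ITGAV measured 24.6, 12.1 and 29.7 FPKM. Leukocyte and stromal chains were low: ITGAL at 0.02, 0.02 and 0.05 FPKM, ITGAD at 0, 0 and 0.02 FPKM, ITGA9 at 0, 0.01 and 0 FPKM, and ITGA8 with no read.

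The interleukin-1 genes led the cytokines. Of 40 listed cytokines and chemokines 26 (65%) passed 1 FPKM, near the 67.6% of all listed genes. IL1B measured 291, 331 and 298 FPKM, IL1A 231, 179 and 248 FPKM and IL32 168, 222 and 177 FPKM. The antagonist IL1RN was at 2.31, 1.56 and 3.25 FPKM, 91.8 to 212 times below IL1B. The signaling receptor IL1R1 was at 0.36, 0.21 and 0.48 FPKM, whereas the accessory chain IL1RAP measured 18.2, 7.95 and 20.7 FPKM. The neutrophil attractants CXCL8 (68, 39.5 and 73.7 FPKM), CXCL2 (27.5, 43 and 27.5 FPKM) and CXCL5 (23.2, 19.3 and 19.8 FPKM) were expressed. CXCL1 was listed at 0.09, 0 and 0 FPKM, but CXCL1, CXCL2 and CXCL3 are near copies and their division is uncertain. IL6 measured 2.25, 7.37 and 2.82 FPKM and CSF2 0.79, 2.32 and 0.15 FPKM, both highest in replicate 2. CXCL9 and CXCL17 had no read, CXCL6 was at 0, 0.06 and 0 FPKM and CX3CL1 at 0.09, 0 and 0.03 FPKM.

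Among 45 cytokine, death and TGF-beta receptors, all of them listed, 36 passed 1 FPKM. TNFRSF12A, the TWEAK receptor, measured 85.3, 171 and 82.2 FPKM, LTBR 93.2, 106 and 93.9 FPKM, TNFRSF21 85.7, 86.1 and 88.5 FPKM and TNFRSF1A 76.7, 83.6 and 73.3 FPKM. IFNGR1 measured 69.1, 42.1 and 73.3 FPKM and IL4R 59.4, 59.2 and 55.9 FPKM. In replicate 2 TNFRSF12A was at least 2-fold above both others by CPM, and IL1RAP and TGFBR1 at least 2-fold below. After the GC and length adjustment none of these receptors was, and the log2 difference was 0.75 for TNFRSF12A, -0.92 for IL1RAP and -0.52 for TGFBR1. BMPR1B was at 0.31, 0.28 and 0.35 FPKM and IL20RA at 0.36, 0.28 and 0.37 FPKM. Of 9 listed Toll-like receptors 1 passed, TLR2 (3.42, 2.13 and 3.57 FPKM). TLR3 was at 1.22, 0.47 and 1.28 FPKM, TLR9 at 0.17, 0.03 and 0.18 FPKM and TLR5 at 0.04, 0.02 and 0.1 FPKM, and TLR4 had no read.

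Proteases and the plasminogen system were strongly represented, with 25 of 29 listed genes (86.2%) at 1 FPKM or more, against 67.6% of all listed genes. PLAU, urokinase, measured 576, 594 and 590.1 FPKM, 11.9 to 14.7 times its receptor PLAUR (44.9, 50.1 and 40.2 FPKM). The inhibitors SLPI (217, 160.1 and 277 FPKM) and PI3 (158, 127 and 245 FPKM), which block neutrophil elastase, followed. MMP14, a membrane-anchored metalloprotease, measured 172, 186 and 170.2 FPKM and SERPINB2 55.9, 122 and 63.6 FPKM. MMP3 (0.6, 0.86 and 0.31 FPKM), MMP12 (0.33, 0.15 and 0.1 FPKM) and TIMP4 (0.82, 0.83 and 0.43 FPKM) did not pass. F3, tissue factor, which starts coagulation, was the highest of the surface antigens listed at 1680.1, 1276 and 1580.0 FPKM. All 25 listed surface antigens passed, with BSG at 481, 557 and 474 FPKM, CD63 at 364, 375 and 403 FPKM, CAV1 at 415, 303 and 356 FPKM and CD81 at 233, 255 and 215 FPKM. NECTIN4 measured 16.1, 7.93 and 18.5 FPKM and L1CAM, the lowest of the list, 6.44, 5.74 and 6.07 FPKM.

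Of 43 listed nuclear receptors 21 (48.8%) passed 1 FPKM, below the 67.6% of all listed genes. ESRRA measured 66.9, 78.9 and 68.3 FPKM, NR2F6 52.9, 65 and 54.4 FPKM, RXRA 54.5, 51.5 and 56.3 FPKM and RARG, the main retinoic acid receptor of epidermis, 24.7, 23 and 24.6 FPKM. RXRB (23, 23.8 and 20.2 FPKM) and PPARD (16.4, 15.5 and 17.7 FPKM) followed. ESRRB (0, 0 and 0.03 FPKM) was near 0, and NR5A1 and NR0B2 had no read.

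Antigen presentation was split between the classes. All 19 genes of the MHC class I pathway passed 1 FPKM, with a median of 91 FPKM. B2M measured 832, 659 and 893 FPKM, HLA-B 767, 656 and 814 FPKM and HLA-C 931, 897 and 929 FPKM, and the HLA genes share sequence and vary between people, so their levels are uncertain. The peptide transporter chains TAP1 and TAP2 measured 54.2, 58.1 and 51.5 FPKM and, respectively, 78.9, 102 and 78.8 FPKM, and NLRC5, the class I activator, 5.14, 5.15 and 4.92 FPKM. Of 13 class II genes 4 passed. CD74, the invariant chain, measured 82.7, 89.98 and 87.4 FPKM and HLA-DQB1 18.8, 17 and 19.6 FPKM, while HLA-DRA was at 0.17, 0.16 and 0.17 FPKM, HLA-DPB1 at 0, 0.02 and 0 FPKM and the class II activator CIITA at 0.57, 0.31 and 0.48 FPKM. CD74 and HLA-DQB1 therefore stood far above the other class II genes in each library.

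Genes that restrain immune cells stood at varied levels, with 14 of 22 (63.6%) at 1 FPKM or more, near the 67.6% of all listed genes. LGALS1, galectin-1, measured 1320.0, 1319 and 1442 FPKM and CD276 (B7-H3) 52.4, 58.6 and 50.6 FPKM. NECTIN2 measured 42.1, 45.9 and 38.1 FPKM and NT5E, the CD73 ectonucleotidase, 26.8, 25.2 and 27.7 FPKM. CD274 (PD-L1) was at 2.02, 2.38 and 3.21 FPKM and IDO1 at 1.25, 1.03 and 1.02 FPKM, just over the threshold, and PDCD1LG2 was under it at 0.46, 0.36 and 0.47 FPKM. Galectin-1 thus exceeded every other gene of this list by over 10-fold in each library. VTCN1 was at 0, 0.04 and 0.04 FPKM and CD86 at 0, 0 and 0.11 FPKM.

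All 27 proliferation genes passed 1 FPKM, with a median of 64.3 FPKM. CDC20 measured 194, 286 and 182 FPKM, MCM4 163, 180.4 and 154 FPKM, MCM7 144, 199 and 143 FPKM and UBE2C 118, 183 and 109.7 FPKM. CCNE2 was the lowest at 3.48, 2.01 and 2.88 FPKM, and MKI67 measured 38.8, 24.8 and 37 FPKM. Of 34 listed genes of cell cycle control and squamous carcinoma 31 passed. HMGA1, a chromatin protein of growing cells, measured 459, 682 and 442 FPKM, HRAS 93.9, 133 and 103 FPKM and CCND1 87.2, 108 and 87.7 FPKM. MDM2, a ubiquitin ligase, was at 7.54, 4.27 and 8.31 FPKM. TERT was at 0.41, 0.71 and 0.26 FPKM, MYCL at 0.99, 0.91 and 0.96 FPKM and MYCN at 0.12, 0.05 and 0.22 FPKM.

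Genes near CCND1 on 11q13, a segment often amplified in this cancer, differed from each other. CTTN, cortactin, measured 266, 286 and 279 FPKM, FADD 50.2, 69.2 and 48 FPKM and PPFIA1 28.4, 21.9 and 30.8 FPKM, while ANO1 was at 0.8, 0.41 and 0.98 FPKM and SHANK2 at 0.26, 0.1 and 0.2 FPKM. Copy number was not measured. On 9p21, often deleted in this cancer, MTAP measured 10.1, 9.28 and 10.7 FPKM, KLHL9 6.37, 3.8 and 7.02 FPKM and DMRTA1 0.62, 0.22 and 0.6 FPKM. CDKN2A and CDKN2B of that segment were not analysed here. Of 10 listed cancer testis antigens 5 passed: MAGEA3 (74.2, 86.4 and 73.9 FPKM), MAGEB2 (57.4, 61.3 and 56.5 FPKM), MAGEA6 (33.6, 42 and 39.4 FPKM), LAGE3 (26.5, 34.8 and 28.7 FPKM) and MAGEA2 (9.29, 10.6 and 7.45 FPKM). MAGEA3 and MAGEA6 are near copies, so their split is uncertain, and MAGEA10 and SSX2 had no read.

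Stress and antioxidant genes passed in 28 of 33 cases. FTH1, the ferritin heavy chain, measured 2762, 2694 and 2936 FPKM, HSP90AB1 1201, 1491 and 1184 FPKM, MT2A 1051, 1568 and 1092 FPKM and FTL 890.0, 1070.2 and 873 FPKM. NQO1, a target of NFE2L2, measured 29, 42.5 and 31 FPKM. The aldo-keto reductases were lower: AKR1C3 at 9.27, 6.46 and 14.6 FPKM, AKR1C1 at 1.17, 0.68 and 0.97 FPKM, AKR1C2 at 0.66, 1.14 and 0.79 FPKM and AKR1B10 at 0.57, 0.35 and 0.76 FPKM. ALDH1A1, a retinal dehydrogenase, had no read. The AKR1C genes are close copies, so their split is uncertain.

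Translation and cytoskeleton genes filled the top of the ranking. Among the 10 highest by mean FPKM were RPS18 (6713, 6484 and 6287), GAPDH, TMSB10 (4953, 4969 and 4403), RPS2 (4349, 5287 and 4417), RPS27 (4188, 4394 and 4200.1), ACTB (3752, 4494 and 3624), RPS24 (3362, 3969 and 3254), RPL35 (3227, 3557 and 2847) and S100A6 (3057, 3119 and 3162). All 77 cytoplasmic ribosomal protein genes passed 1 FPKM, and their summed share of each library's counts was 5.2% to 5.86%. Their order is uncertain, since the length implied by a value and its count was 158 bases for RPS18, over 2-fold under its longest GENCODE transcript, and since they have many processed pseudogenes. RPL14, at 35.5, 42.9 and 35.2 FPKM, was the lowest.

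Genes with no read were not detected at this depth. Of 16330 listed genes 432 (2.65%) had a count of 0 in all 3 libraries. Taken by single library, a count of 0 allows up to 3 counts, 0.24 to 0.26 CPM. The limit over the 3 libraries together, which is lower, was not computed. The tables list genes with a read in at least 1 of the 6 libraries, so each of the 432 had a read in a CPI-613 library. Genes with no entry were not analysed here and are not called silent. Of 937 listed genes in the lists used, 17 had no read, among them TGM3, SPINK7, CD4, CKM, HK3, LDHC, CXCL9, CXCL17, MUSK, ITGA8, TLR4, NR5A1, NR0B2, MAGEA10, SSX2 and ALDH1A1. They include genes known from leukocytes (CD4), muscle (CKM, MUSK), germ cells (LDHC, SSX2), endocrine tissue (NR5A1) and the cornified layer (TGM3).

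The spread between the libraries was largest toward replicate 2. Replicates 1 and 3 differed at least 2-fold in 5 of 10014 genes, replicates 1 and 2 in 260, and replicates 2 and 3 in 423. In replicate 2, 232 genes (2.32%) were at least 2-fold below both other libraries and 19 (0.19%) at least 2-fold above both. Its deviation moved with base composition: the median log2 CPM of replicate 2 minus the mean of replicates 1 and 3 was -0.54 in the fifth of genes with the lowest GC content and 0.33 in the fifth with the highest. It also moved with length, from 0.23 in the shortest to -0.38 in the longest transcripts. After the GC and length adjustment 82 genes (0.821%) were at least 2-fold below both others and 13 (0.13%) above.

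**Figure D4:**
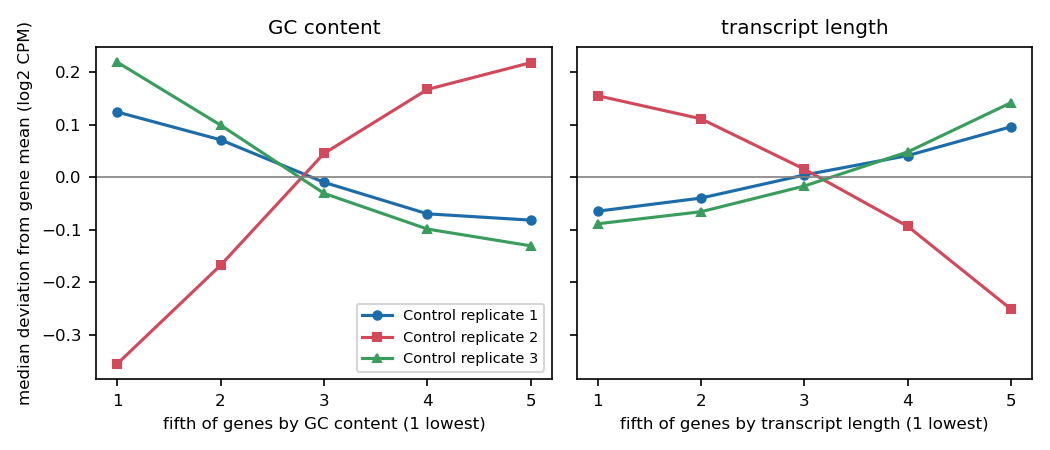
Median deviation of each Control library from the gene's mean (log2 CPM, vertical axis) in 5 equal classes of 9985 genes ordered by GC content (left) or transcript length (right). Replicate 2 (squares) runs from -0.36 to 0.22 with GC content. The deviations of a gene cancel out over the libraries, so replicates 1 (circles) and 3 (triangles) together had to slope the other way.

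The 10 largest coefficients of variation belonged to CCN2, BOLA2B, CCN1, FOSL1, CA9, ARRDC3, NDRG1, ABCA1, GRHL1 and RPS10-NUDT3, from 87.3% to 61.7%. CA9, carbonic anhydrase 9, measured 52, 8.66 and 53.7 FPKM, and NDRG1 874, 180.3 and 995 FPKM. ARRDC3 measured 23.4, 4.8 and 27.7 FPKM, ABCA1, a cholesterol exporter, 1.35, 0.28 and 1.5 FPKM and the epithelial factor GRHL1 9.99, 2.33 and 12.1 FPKM. These 5 were lower in replicate 2 than in both others, and BOLA2B (41.4, 109 and 28.3 FPKM) and RPS10-NUDT3 (3.1, 7.93 and 3.15 FPKM) were higher. BOLA2B has a near-identical copy and RPS10-NUDT3 is a readthrough of RPS10, so both values are uncertain.

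CA9 and NDRG1 are known to be induced by low oxygen through HIF, and a list of 34 hypoxia-response genes was therefore drawn up after the spread had been seen. All 33 members with at least 100 counts lay below the mean of the others in replicate 2, where 48.4% of all such genes did. Of these, 16 were at least 2-fold below both others, against 2.32% of all genes. After the GC and length adjustment 11 were (0.821% of all genes), with all 33 still below the mean (49.9% of all genes). The median difference in log2 CPM was -0.95, and -0.82 after adjustment, against 0.02 and 0 over all genes. EGLN3, an oxygen sensor, measured 75.5, 20.9 and 95.6 FPKM, and IGFBP3 158, 50.1 and 197 FPKM. HILPDA, a lipid droplet protein, measured 46.5, 18.8 and 49.5 FPKM and ANGPTL4 16, 7.41 and 16.5 FPKM. PLOD2 and LOX, which modify collagen, measured 38.1, 13.8 and 46.9 FPKM and, respectively, 3.03, 0.81 and 3.28 FPKM. Glycolytic members varied: the difference in log2 CPM was -1.25 for ENO2 and -0.94 for ALDOC, isoenzymes known from brain, -0.71 for HK2, -0.48 for PGK1 (288, 205 and 310.2 FPKM), -0.40 for LDHA and -0.20 for the glucose transporter SLC2A1. These glycolytic values are without the GC and length adjustment, and the part of base composition in their order was not tested. Because the list was chosen on these libraries, its direction is a description and not independent evidence. Oxygen, cell density and time of harvest were not given in the sources used here, and their part in this difference was not tested.

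HIF binds DNA at the core ACGTG. These letters, on either strand within 250 bases before the start, were found for 16 of 29 listed hypoxia-response genes in the RefSeq promoter table (55.2%), for 21.9% of the promoters of all listed genes and for 18.7% of all 27305 promoters. CA9 (plus strand, GRCh38.p14, chr9:35673895-35673927), ANKRD37 (plus strand, chr4:185396664-185396717) and LOX (minus strand, chr5:122078282-122078459) are shown because they were lower in replicate 2 and carry the letters. Picked on both properties, they are examples only. A match is not evidence that HIF bound the site, and its relation to the difference of replicate 2 was not tested. Capitals mark ACGTG or its reverse complement CACGT, which overlap in CACGTG. The search gave 1, 3 and 4 matches in these stretches.
CA9: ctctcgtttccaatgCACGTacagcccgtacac
ANKRD37: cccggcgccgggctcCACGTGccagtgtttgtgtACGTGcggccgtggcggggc
LOX: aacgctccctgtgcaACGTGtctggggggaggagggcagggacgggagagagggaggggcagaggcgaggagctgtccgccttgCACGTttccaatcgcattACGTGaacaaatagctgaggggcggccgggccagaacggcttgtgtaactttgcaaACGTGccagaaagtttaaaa

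Interferon-stimulated genes were expressed at baseline, and most were lower in replicate 2. The labels name no interferon treatment. Of 41 listed 33 (80.5%) passed 1 FPKM, against 67.6% of all listed genes. ISG15, a ubiquitin-like modifier, measured 191, 146 and 183 FPKM, BST2 72.8, 58.7 and 73.7 FPKM and IFI6 55.8, 35.3 and 54.4 FPKM. IRF1 measured 44.4, 40.2 and 37.1 FPKM and OAS3 39, 37.5 and 42.4 FPKM. The ligands were near 0, with IFNB1 at 0.29, 0 and 0.41 FPKM and IFNL1 at 0.16, 0 and 0 FPKM. Of 28 members with at least 100 counts, 24 lay below the mean of the others in replicate 2 (48.4% of all genes), and 27 after the adjustment (49.9%). At least 2-fold below both others were 7 (2.32% of all genes), and 3 after the adjustment (0.821%). IFIT2 measured 25.9, 8.71 and 34.5 FPKM and DDX60, an antiviral helicase, 7.29, 2.14 and 9.78 FPKM, both lowest in replicate 2.

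The interferon-stimulated response element is bound by the factor ISGF3. The letters GAAANNGAAA, on either strand within 250 bases before the start, were found for 17 of 32 listed members in the promoter table (53.1%), for 2.62% of the promoters of all listed genes and for 3.07% of all promoters. Shown with the matched letters (or their reverse complement TTTCNNTTTC) in capitals are ISG15 (plus strand, chr1:1013369-1013414), the highest of the list, IFIT1 (plus strand, chr10:89392492-89392544) and IFIT3 (plus strand, chr10:89327826-89327899) at 8.84, 3.95 and 9.98 FPKM and, respectively, 39.2, 21.2 and 47.9 FPKM, and DDX60 (minus strand, chr4:168318781-168318855) and CXCL10 (minus strand, chr4:76023694-76023733, 3.16, 1.28 and 4.3 FPKM). In ISG15 the matches overlap. A match is not evidence that the site is used. ISG15, at 146 to 191 FPKM, and CXCL10, at 1.28 to 4.3 FPKM, both hold the letters, at very different levels.
ISG15: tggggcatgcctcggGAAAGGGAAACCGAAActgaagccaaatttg
IFIT1: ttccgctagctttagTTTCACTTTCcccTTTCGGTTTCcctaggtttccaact
IFIT3: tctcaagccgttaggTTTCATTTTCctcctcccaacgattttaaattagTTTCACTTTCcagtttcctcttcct
DDX60: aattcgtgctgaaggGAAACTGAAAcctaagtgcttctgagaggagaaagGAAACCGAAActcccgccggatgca
CXCL10: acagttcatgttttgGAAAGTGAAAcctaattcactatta

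Genes higher in replicate 2 included targets of the regulators YAP and SRF, which respond to cell shape and growth signals. In a list of 27 such genes, also written after the spread had been seen, 20 of 23 members with at least 100 counts lay above the mean of the others in replicate 2 (51.6% of all genes), and 15 of 23 after the adjustment (49.9% of all genes). At least 2-fold above both others were 4, CCN2, CCN1, FOSL1 and TNFRSF12A (0.19% of all genes), and 3 after the adjustment (0.13%). CCN2, CCN1 and FOSL1 were already known for their large coefficients of variation when the list was written. These counts are therefore a description and not independent evidence. The difference in log2 CPM was 2.03 for CCN2, 1.65 for CCN1 and 1.56 for FOSL1, and after adjustment 1.87, 1.49 and 1.22. Structural members differed less: the difference was 0.35 for ACTB, 0.42 for FLNA and -0.18 for VCL, and after adjustment 0.06, 0.16 and -0.01. The list as a whole therefore had a small median of 0.16 after adjustment, with 3 genes far from it.

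Proliferation and mitochondrial lists differed less in replicate 2 than the hypoxia-response and interferon-stimulated lists. After adjustment the median difference of replicate 2 was 0.27 for proliferation genes (23 of 26 above) and 0.16 for TCA cycle genes (11 of 17 above). Desmosome and adherens junction genes had a median of -0.52 (13 of 15 below) and squamous transcription factors -0.44 (18 of 23 below). Over all genes with an adjusted value 49.9% lay below and 49.9% above. Cytoplasmic ribosomal protein genes had 0.03. Wound and hyperproliferation keratins had -0.83 (4 of 4 below), and the 3 glandular genes with enough counts, MUC1, MUC4 and MUC16, had -1.19. After adjustment each of these 3 was at least 2-fold below both others, as were 0.821% of all genes. By CPM without adjustment 1 of the 3 was, and 2.32% of all genes. Of the marker genes, the adjusted difference was -0.51 for KRT5, -0.55 for TP63, -0.85 for KRT13 and -0.38 for THBS2. KRT5 lay above the median of its own list, basal keratins (-0.64). TP63, KRT13 and THBS2 lay below theirs: squamous transcription factors (-0.44), differentiation keratins (-0.04) and thrombospondins and matricellular proteins (-0.06). The medians of both keratin lists rest on 3 genes each, with the marker among them. Without replicate 2 the mean level was 1274 FPKM for KRT5, 77.2 for TP63, 98.8 for KRT13 and 34.4 for THBS2.

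**Figure D5:**
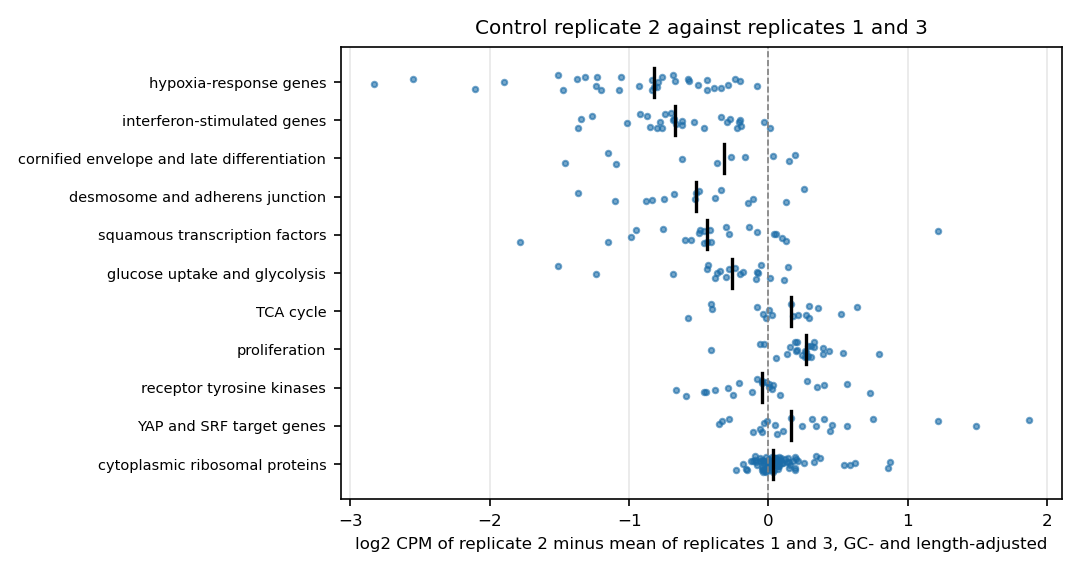
Difference in log2 CPM between Control replicate 2 and the mean of replicates 1 and 3 (horizontal axis, adjusted for GC content and length) for each gene with at least 100 counts (points) of 11 lists, with the list's median as a black bar. Hypoxia-response genes all lie below 0 (median -0.82), interferon-stimulated genes have a median of -0.67, and ribosomal protein genes centre near 0.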

How the data were processed

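HN12 RNA was isolated with TRIzol, NEBNext Ultra II libraries were prepared from it, and these were read by DNBSEQ (labels' protocols). Build hg38 and the tools HTSeq, STAR 2.5, CASAVA, DESeq2 and edgeR 3.16.5 appear in the submitters' processing notes without a role. For strand setting and annotation release, the sources used here give nothing. The authors deposited estimated counts per RefSeq transcript (79031 transcripts of 16330 genes). The authors also deposited a table per gene without a named unit, taken here as FPKM scaled by the authors to length and library size. These FPKM were used as deposited. Counts, library totals and 1 length per gene reproduced them for 1795 genes with 1 transcript. There the implied length in replicate 1 over that in replicate 2 was 0.998 at the median (0.99 to 1.00 from the 5th to the 95th percentile). This check did not cover genes with several transcripts. In some genes the implied length differed between libraries, so FPKM and CPM can differ in direction. AAMDC had its lowest count in replicate 2 (345, 238 and 338) but its highest FPKM there (25.2, 30 and 23.6). A value per length depends on the length the authors used, which was at least 2-fold below the longest GENCODE 29 transcript in 749 of the genes with at least 100 counts.

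Estimated counts were summed per gene, scaled by TMM (edgeR 4.0.16) over the 3 Control libraries and expressed as CPM. Totals of 11535067 to 12511791 counts limit a count of 0 to 3 counts per library. These limits cover counting error only. Symbols joined 16259 genes of both tables. The 71 genes not joined held 0.0323% of the counts. Log2 differences used a prior of 0.5 CPM. The GC and length adjustment subtracted the median of 5 by 5 bins, for 9985 genes (99.7%). Coordinates and promoters are RefSeq's (GRCh38.p14), matched by symbol for 20 of 39 keratins, 32 of 41 interferon-stimulated and 29 of 34 hypoxia-response genes. Scripts ran in Python 3.11.15 with pandas 2.3.3 and in R 4.3.3. The scaling, the coefficient of variation and the 2-fold calls were tested on simulated counts. These had the same dispersion in every library and no trend with GC content or length, so the adjustment was not tested. With 1 group there is no contrast, and no p-value was computed.

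The members and the 47 lists were chosen with earlier results of these data known. Named genes are the 4 markers, the 10 highest by FPKM, up to 6 highest and 4 lowest of each list, its members with no read, all members of lists of up to 20, and the 10 largest coefficients of variation and up to 2 per list. Genes named beyond this rule, and 2 added lists, were chosen after their values were seen. Some genes that the rule names are not reported here. Of 1027 list genes 90 had no entry and were not analysed here. Alternatives were other thresholds, TPM, another length, DESeq2 1.42.0 size factors, library totals, other count minimums and leaving out each library.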

Additional observations from a re-analysis of the deposited data

How the results depend on the processing

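The number of genes at 1 FPKM or more stayed within 1.5 times of 11037 under each alternative run, from 10002 (a threshold of 2 FPKM) to 12323 (at least 10 counts), and from 11083 to 11396 when a library was left out. The number of genes with a count of 0, 432, depended on the rule: 1369 genes had at most 1 count in every library, and 711 to 751 had 0 when a library was left out. The median coefficient of variation, 14.8%, was 4.6% to 17.5% when a library was left out, the lowest without Control replicate 2, and 12.7% to 16.2% under other scalings and count minimums. The common biological coefficient of variation by edgeR was 19.2%, and 5.84% without Control replicate 2. As TPM, the mean levels were 2150 for KRT5, 116 for TP63, 157 for KRT13 and 56.3 for THBS2. By the longest GENCODE transcript KRT5 was 944 FPKM. With 3 libraries and 11535067 to 12511791 counts each, levels near 0.1 FPKM rest on few reads, and their order was not resolved. No paired analysis was possible because the 3 libraries form 1 group and no groups were compared.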

Other observations

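A smaller set of genes separated Control replicates 1 and 3, which otherwise lay close together. The 5 genes at least 2-fold apart between them were CCN2, EGR1, KRT6B, S100A8 and the readthrough gene FMC1-LUC7L2, whose reads cannot be told from those of its neighbors. On the log2 CPM scale replicate 1 minus replicate 3 was -1.18 for CCN2, -1.17 for EGR1, -1.14 for KRT6B, -1.12 for S100A8 and 1.26 for FMC1-LUC7L2. Among the next were S100A9 (-0.98), FOS (-0.96), SPRR1B (-0.93), KRT16 (-0.74) and the elastase inhibitor PI3 (-0.65). These are a selection, and the number of all genes in this range was not counted. KRT6B, KRT16, S100A8, S100A9, SPRR1B and PI3 are known from wounded and inflamed squamous epithelium, and EGR1 and FOS are immediate early genes. Other cornified envelope genes did not share this direction: by FPKM, PPL and EVPL differed little between replicates 1 and 3, and DMKN was higher in replicate 1. Of the genes with a log2 difference given here, FMC1-LUC7L2 alone was higher in replicate 1. The genes were chosen after their values were seen, and no test was made.

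Cystine transport and metallothionein genes differed from their close partners. SLC7A11 measured 2.59, 4.25 and 2.64 FPKM, while SLC3A2, the chain it pairs with, measured 1119, 1553 and 982 FPKM. Among metallothioneins MT2A measured 1051, 1568 and 1092 FPKM, MT1E 225, 326 and 209 FPKM and MT1X 146, 70.5 and 171 FPKM. MT1X was lowest in replicate 2, where MT2A and MT1E were highest, and metallothionein genes are near copies of each other, so their split is uncertain.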
